A study of Mus musculus with 8 samples.

Results

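CT1 is, by total number of nuclei, the largest of 4 connective tissue classes, CT1 to CT4, that the authors' deposited annotation distinguishes in the petrous temporal bone (PTB), the part of the skull base that houses the inner ear. Its members were all nuclei that carry the label CT1, joined by library and barcode to the raw unique molecular identifier (UMI) counts. This gave 2643 nuclei of 31076 annotated PTB nuclei, and of 79313 annotated nuclei in the whole series, which also holds the paraflocculus and flocculus (PF/F), the cerebellar lobules lodged against this bone. The rule uses the label alone, but the annotation itself was built by clustering the same transcriptomes, so levels in CT1 against other classes are given as a description without a test.

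Versican, the product of Vcan, is a large chondroitin sulphate proteoglycan. It binds the polysaccharide hyaluronan and forms the hydrated, loose matrix of embryonic and healing connective tissue. In such tissue, fibroblasts also lay down collagen I and III fibrils and elastic fibres, in which elastin is deposited on a scaffold of fibrillin microfibrils. Glypicans such as Gpc3 are cell surface heparan sulphate proteoglycans that bind growth factors. Tbx1 encodes a T-box transcription factor required for the pharyngeal apparatus and the ear, and its loss is part of a human microdeletion syndrome.

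Wild-type (WT) and Tbx1+/- littermates at postnatal day 5.5 were compared to ask how the loss of 1 Tbx1 copy affects bone and cerebellum. Each library was made from a pool of 5 mice. In the PTB there were 2 WT and 2 Tbx1+/- libraries, and both genotypes came from a line backcrossed onto C57BL/6J. The mutants carry the mutant allele in every cell, so an effect within CT1 and an effect reaching it from other cells cannot be told apart. The methods describe 2 batches of mice, each with both genotypes, and libraries of the same number share the date written in their deposited file names. Replicate number was therefore also fitted as a block. The p-values by edgeR rest on the spread between these pools together with spread shared across genes or classes.

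The PTB libraries held between 66835028 and 88677309 UMIs over 11906 to 21868 barcodes, of which 10172 to 19160 held at least 1000 detected genes and 5981 to 9977 were annotated. Within CT1 the depth was uneven. WT replicate 1 contributed 1315 nuclei, WT replicate 2 contributed 332, Tbx1+/- replicate 1 contributed 878 and Tbx1+/- replicate 2 contributed 118. Median UMIs per CT1 nucleus lay between 3328 and 4005.5, so the libraries differed in the number of CT1 nuclei far more than in their depth. Across 13488 genes, log2 levels in summed CT1 nuclei correlated at 0.923 to 0.928 (Pearson, across genes, which are not independent replicates) between Tbx1+/- replicate 2 and the other libraries, and at 0.962 to 0.984 among those 3. Tbx1+/- replicate 2, with the fewest nuclei, therefore stood apart, and some genotype results below are also given without it. Between any 2 libraries, at most 1 CT1 barcode was shared.

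Levels below are CPM values, that is UMIs of a gene per 1000000 UMIs summed over the CT1 nuclei of a library. They are always quoted in the order WT replicate 1, WT replicate 2, Tbx1+/- replicate 1, Tbx1+/- replicate 2, and the same gene is compared between classes. Vcan stood at 1616, 1863, 1381 and 1238 CPM. Each value was higher than in any of the other 14 PTB classes in the same library, and the mean was 5.17-fold that of the next class, CT3, at 295 CPM. Col3a1, which encodes the chain of collagen III, stood at 2292, 1530, 1877 and 1073 CPM. It too was highest in CT1 in all 4 libraries, 1.68-fold over CT2. Gpc3 stood at 509, 557, 540 and 548 CPM, which placed CT1 second behind CT2 at 689 CPM. These genes belong to the transcriptomes that were clustered to make the class, so their levels describe it and do not test it. Gpc3 was shared with CT2 and was highest in CT1 in 1 of 4 libraries.

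Vcan was found in most CT1 nuclei. After each nucleus was thinned to 2000 UMIs, 69.4%, 70.3%, 68.2% and 56.3% of CT1 nuclei held a Vcan UMI, against 76.7%, 78.3%, 76.7% and 65.3% without thinning. Thinning left out 99, 16, 71 and 6 shallower CT1 nuclei. Osteoclasts, bone-resorbing cells of the blood lineage, were taken as the comparison for free RNA, although blood-lineage cells can express Vcan themselves. Of their nuclei, 13.1%, 9.97%, 15.5% and 7.39% held a Vcan UMI at the same thinned depth, with median depths of 4963, 7105, 5323 and 6617 UMIs before thinning. Without thinning, 27.2%, 22.8%, 31.4% and 17.4% of osteoclast nuclei held one. The share in CT1 was therefore well above that background in every library. Col3a1 stood out less, with UMIs in 92.1%, 78.8%, 90.3% and 71.4% of thinned CT1 nuclei and in 55.2%, 25.7%, 54.5% and 22.4% of thinned osteoclast nuclei. Without thinning, the Col3a1 shares were 97.5%, 92.8%, 95.7% and 87.3% in CT1 and 85.9%, 57.5%, 84.2% and 54.1% in osteoclasts. For Has2, the share was 20.0%, 21.2%, 18.1% and 11.6% in CT1 and at most 0.969% in osteoclasts.

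**Figure D1:**
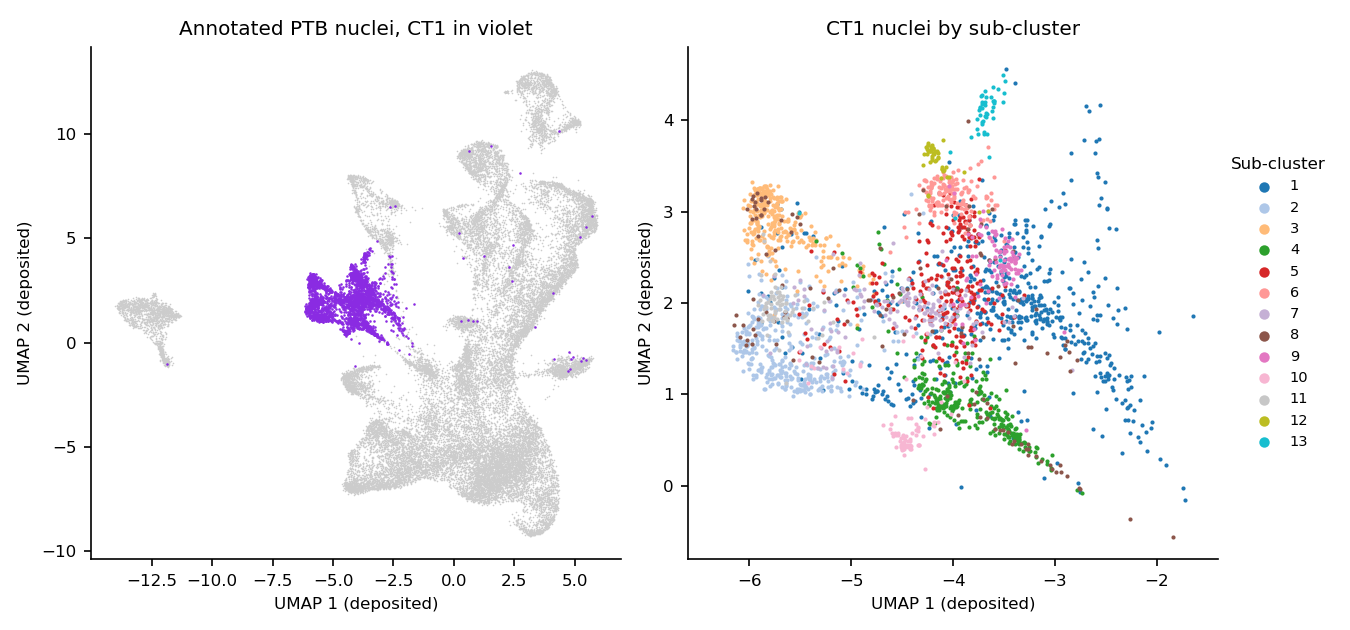
The deposited UMAP (2 axes without units) of all annotated PTB nuclei in grey with CT1 in violet (left), and CT1 nuclei coloured by sub-cluster, numbered by size (right). Most CT1 nuclei lay in 1 region; 2610 CT1 nuclei lie in the right panel and 33 lie outside it, scattered among other classes.

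Among the 3715 genes with at least 50 CPM in CT1 in every library, CT1 had the highest mean of the 15 classes for 284, was highest in all 4 libraries for 113, and exceeded the next class more than 2-fold for 38. Over the 13488 genes tested between genotypes below, CT1 was highest for 977 (7.24%). That share is the background for the counts of list members that follow. A set of 30 genes was named by a rule of size, as the 25 with the largest ratio to the next class and the 25 with the largest ratio to the mean of the other classes. All 30 were highest in CT1 in all 4 libraries, which the ratio used to pick them favours.

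Has2 was high in CT1 alongside Vcan, but Cd44, Acan and Hapln1 were not highest there. Has2, the hyaluronan synthase that extrudes hyaluronan from the plasma membrane, stood at 227, 232, 154 and 157 CPM, 3.98-fold the mean of matured chondrocytes at 48.3 CPM. Both Tbx1+/- values lay below both WT values. The hyaluronan receptor gene Cd44 was at 119 to 142 CPM and was higher in osteoclasts, at 585 CPM. Acan and Hapln1, the cartilage counterparts of versican and its link protein, were at 60.5 to 87.1 CPM and 25.5 to 52.3 CPM in CT1 against 1333 and 1353 CPM in matured chondrocytes. Among the small leucine-rich proteoglycan genes, whose products bind collagen fibrils, Dcn, Lum and Ogn were expressed but not highest. Dcn was at 535 to 776 CPM against 774 CPM in CT2, and Lum and Ogn were higher in CP1 and CT3. Of the 18 tested proteoglycan genes, 4 were highest in CT1, and of 10 glypican and syndecan genes none was.

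Many genes of the elastic fibre were highest in CT1. Of 21 members, all of which were tested, 10 were highest in CT1. Their summed level was 4759, 4874, 4614 and 4165 CPM, and the next class, CP6, reached 2282 CPM. CP1 to CP6 are 6 classes that the authors call chondrocyte progenitors. Eln, which encodes elastin, stood at 653, 753, 647 and 550 CPM, 5.04-fold CT2. In WT replicate 2, 270 of the 1184 Eln UMIs lay in 1 nucleus. Fbn1, which encodes the main fibrillin of postnatal microfibrils, stood at 565, 636, 591 and 499 CPM, 2.27-fold CT2. Fbn2, the fibrillin typical of developing tissue, was at 1041, 1208, 1043 and 1302 CPM, 1.42-fold CT3. Every CT1 library exceeded the other classes for these 3 genes. The assembly genes Fbln5, Ltbp4, Mfap4, Mfap5 and Fbln2 and the crosslinking enzyme gene Loxl1 were also highest in CT1 in all 4 libraries, by 1.24-fold for Mfap4 to 2.48-fold for Fbln2. Not every member followed. Efemp1, which encodes a fibulin, was at 183 to 277 CPM against 478 CPM in CP6, and Lox, another crosslinking enzyme, was highest in matured osteoblasts.

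Of 11 tested fibrillar and fibril-associated collagen genes, 4 were highest in CT1, and of 15 tested network and beaded-filament collagen genes, 4 were. Besides Col3a1, CT1 was highest for Col14a1, at 572 to 809 CPM and 1.71-fold CP3, for Col5a3, at 46.7 to 67.1 CPM and 3.67-fold the next class, and by 1.10-fold for Col5a1. Collagen XIV binds the surface of collagen fibrils, and collagen V starts their assembly. Col1a1 and Col1a2, the chains of collagen I, were at 3321 to 4968 CPM and 3130 to 4705 CPM, below the bone-forming classes, where Col1a1 reached 9352 CPM in matured osteoblasts. Among the other fibril and filament genes, Col6a6 stood at 179, 181, 143 and 166 CPM, 3.47-fold CP3. Of 24 tested genes for adhesive glycoproteins, 4 were highest in CT1. These included Postn, encoding periostin of fibrous tissues, at 1200, 719, 930 and 571 CPM and 2.09-fold CP1. Tnxb, encoding tenascin X of loose connective tissue, stood at 83.1, 77.0, 70.2 and 102 CPM, 2.80-fold CT2.

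**Figure D2:**
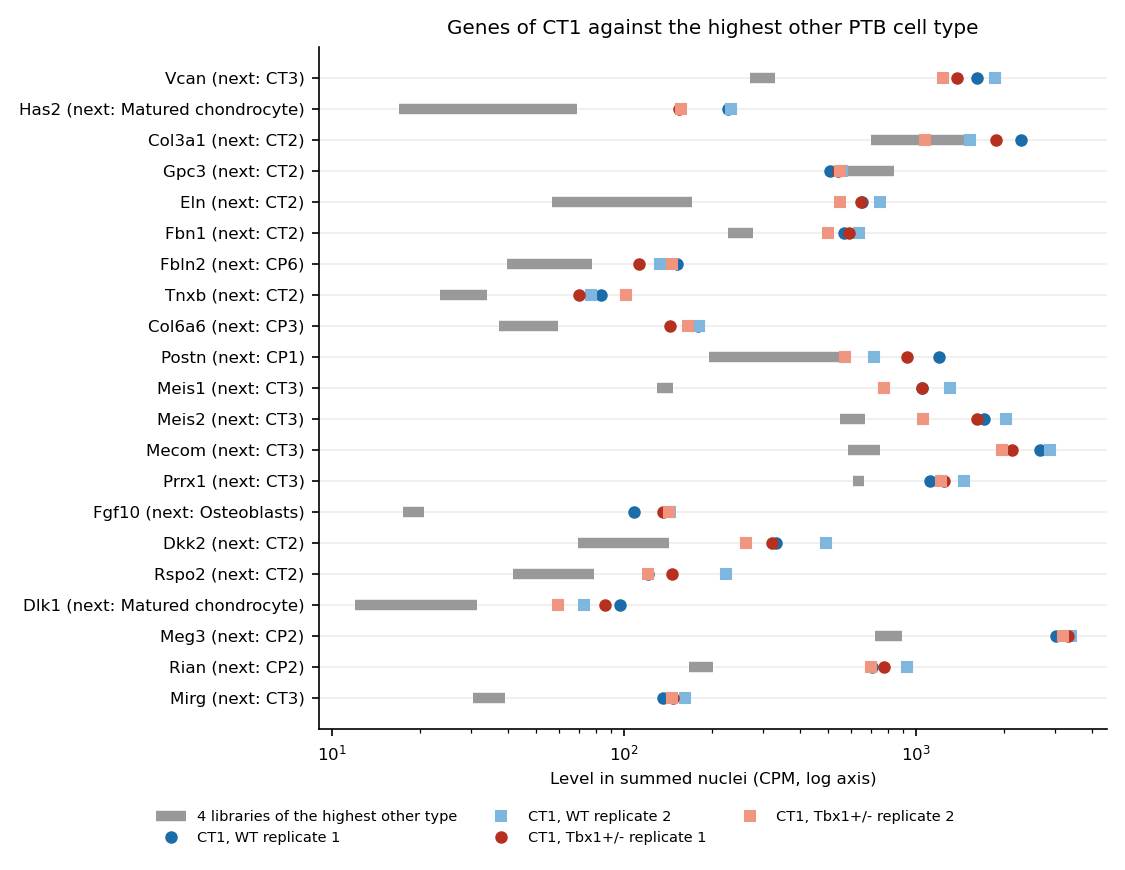
Levels in summed nuclei (CPM, log axis) of 21 genes picked by hand from those named in the text: circles and squares are the 4 CT1 libraries, and the grey bar spans the 4 libraries of the other class with the highest mean. All but Gpc3 had their highest mean in CT1, and list members higher elsewhere, such as Efemp1 and Lox, are not shown. For Vcan, Eln, Meis1 and Fgf10 all 4 CT1 points lie to the right of the bar, whereas for Gpc3 they overlap CT2 and for Col3a1 the lowest CT1 library lies within the range of CT2.

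Several mesenchymal transcription factor genes were highest in CT1. Of 35 tested mesenchymal factors, 13 were highest there. Meis1 stood at 1049, 1303, 1046 and 777 CPM, 7.53-fold CT3 at 139 CPM, the largest ratio to the next class among the 30 named genes. Meis2, its paralogue, stood at 1705, 2037, 1615 and 1060 CPM, 2.63-fold CT3. Tbx1+/- replicate 2 had the lowest value for both Meis genes. Prrx1, a homeobox gene of limb and craniofacial mesenchyme, was at 1120 to 1457 CPM, 2.00-fold CT3. Pax9 and Osr2, both known from palate and tooth mesenchyme, were at 21.2 to 54.1 CPM and 17.0 to 34.4 CPM, 6.07-fold and 2.58-fold the next class. Mecom, which encodes a zinc finger factor, stood at 2662, 2866, 2127 and 1962 CPM, 3.63-fold CT3. By contrast Tbx18 was at 35.0 to 52.0 CPM against 749 CPM in CP3, and Foxc1 and Foxd1 were higher in CT2. Meis1 UMIs were found in 66.8%, 72.5%, 68.4% and 51.8% of thinned CT1 nuclei and in 11.9%, 11.3%, 13.2% and 8.81% of thinned osteoclast nuclei.

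Among the 30 named genes, 5 came from 1 imprinted locus on chromosome 12 (coordinates of GENCODE vM21 on GRCm38, the build called mm10). Dlk1, a paternally expressed gene for a transmembrane inhibitor of adipocyte differentiation, lies at chr12:109452823-109463336. The maternally expressed non-coding RNAs Meg3, at chr12:109541001-109571726, B830012L14Rik, at chr12:109695586-109702587, and Mirg, at chr12:109729764-109749460, follow on the same strand, with Rian between Meg3 and B830012L14Rik. Meg3 stood at 3016, 3396, 3308 and 3179 CPM, 3.94-fold CP2. Rian stood at 709, 930, 776 and 701 CPM, 4.13-fold CP2, and Mirg at 136, 162, 147 and 147 CPM, 4.13-fold CT3. Dlk1 stood at 97.0, 73.2, 86.2 and 59.5 CPM, 4.32-fold matured chondrocytes. The 3 named RNAs spread little between libraries, with both genotypes overlapping. Unprocessed transcripts can run on from Meg3 through Rian to Mirg, so their intronic counts are not independent of each other.

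Some ligands and modulators of growth factor pathways were highest in CT1. Fgf10, a mesenchymal ligand for the epithelial receptor FGFR2b, stood at 108, 144, 136 and 142 CPM, 6.86-fold osteoblasts at 19.3 CPM. In Tbx1+/- replicate 2, however, 26 of its 67 UMIs lay in 1 nucleus. Of 26 tested Wnt genes, 9 were highest in CT1, with a summed mean of 2771 CPM against 2085 CPM in CT2. They included Dkk2, a secreted Wnt modulator, at 333, 490, 321 and 261 CPM and 3.24-fold CT2, and Rspo2, whose product amplifies Wnt signals through LGR receptors, at 121, 223, 147 and 121 CPM and 2.62-fold CT2. Lgr4 and Wnt5a, a receptor and a ligand of the same list, were higher in CT4 and CP3. Of 24 IGF, PDGF and FGF genes, 7 were highest in CT1, but the list summed to 5173 CPM there against 7157 CPM in CT3. Igf1 was at 505 to 633 CPM, 1.30-fold CT3, and its receptor gene Igf1r at 573 to 685 CPM, 1.11-fold matured chondrocytes. Sema3c, a secreted guidance factor, stood at 384, 491, 394 and 329 CPM, 4.74-fold CT2. For the TGF-beta and BMP pathway the count was 3 of 27 and for the retinoic acid pathway 2 of 13, closer to the background share.

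Of 14 general fibroblast markers, 8 were highest in CT1, although the list summed to 1282 CPM there against 1895 CPM in the class of hypertrophic chondrocytes and osteoblasts. Pi16 and Dpt, markers of adventitial and dermal fibroblasts, were at 31.8 to 46.7 CPM and 17.0 to 36.3 CPM, 10.5-fold and 7.27-fold CT2. Cd34, a sialomucin of fibroblasts and vascular cells, stood at 95.3, 73.8, 66.6 and 55.2 CPM, 4.12-fold CT2. Pdgfra and Fap, commonly used for fibroblasts at large, were at 231 to 307 CPM and 452 to 513 CPM and were higher in other classes. Of 11 tested meningeal markers and 12 markers of otic mesenchyme and fibrocytes, none was highest in CT1. The meningeal markers summed to 517 CPM in CT1 against 5348 CPM in CT2 and 3771 CPM in the 706 nuclei that the PF/F annotation calls meningeal. Among the named genes, Mecom, Meis2 and Has2 averaged 23.1, 32.9 and 3.04 CPM in those PF/F nuclei, normalised in separate libraries. Not all genes of CT1 were low there, since glypicans and syndecans summed to 3374 CPM in those nuclei and to 3278 CPM in CT1.

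Markers of other cell types were present at differing levels. Of 9 tested tendon and ligament markers, 3 were highest in CT1. That list summed to 1298 CPM, second of the 15 classes after the 4039 CPM of hypertrophic chondrocytes and osteoblasts, and Col14a1 gave 52.8% of it. Of 11 tested perichondrium and skeletal progenitor markers, 2 were highest in CT1. They summed to 2828 CPM, second after the 4928 CPM of osteoclasts and above the 1824 CPM of hypertrophic chondrocytes and osteoblasts, and Prrx1 gave 44.6% of the sum in CT1. That list includes Ctsk, which the paper uses as an osteoclast marker. The osteoclast sum is therefore not one of progenitor markers alone. The 16 chondrocyte markers summed to 2715 to 4059 CPM against 23290 CPM in matured chondrocytes, and the 11 tested osteoblast markers to 4161 to 5347 CPM against 24765 CPM in matured osteoblasts and osteocytes. None of either list was highest in CT1. Immune markers summed to 125 to 130 CPM and endothelial markers to 138 to 215 CPM. Ptprc and Pecam1, which define those lineages, were at 9.21 to 13.4 CPM and 10.2 to 25.3 CPM. Erythroid markers, which are haemoglobin and related genes, summed to 661 to 1123 CPM, and CT1 ranked 3 of 15 classes for them and for skeletal muscle markers. Skeletal muscle markers varied widely between libraries. They summed to 422, 97.4, 473 and 68.0 CPM, with the 2 replicate 1 libraries high and the 2 replicate 2 libraries low in both genotypes. This spread was not particular to CT1, since the same sum ran from 44.1 to 329 CPM in CP1, from 39.7 to 368 CPM in CP2, from 34.9 to 299 CPM in osteoblasts and from 46.0 to 475 CPM in CT2. Osteoclasts held the most, at 671 to 1052 CPM.

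The class whose profile was most like CT1 was CP2. Over 10670 genes with at least 20 CPM in some class, the Spearman correlation of mean levels was 0.922 with CP2, 0.916 with CP4, 0.914 with CP1 and 0.912 with CT3. It was 0.891 with CT2 and 0.738 with osteoclasts. These are correlations across genes within shared libraries, so they describe likeness only. By these means the other connective tissue classes were not closer to CT1 than CP2 and CP4 were. Within single libraries the ranges overlapped, at 0.886 to 0.926 for CP2, 0.878 to 0.919 for CP4 and 0.869 to 0.906 for CT3. The sums also differed in depth, with 3707241 to 4959041 UMIs per library for CP2 and 1035848 to 1443700 for CT3. The effect of depth on the order was not tested.

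CT1 was not uniform. Leiden clustering of its nuclei gave 13 sub-clusters, of 613 down to 47 nuclei, each present in all 4 libraries except the 12th, which had no nucleus from Tbx1+/- replicate 2. The genes that separate sub-clusters chose them, so the levels are a description. The largest was led by Clstn2, had Lef1 and Matn4 among its leading genes, and also held Rspo3 at 125 CPM. The second, of 369 nuclei, was led by Tll1, a procollagen-processing protease gene at 804 CPM against 242 CPM in the next sub-cluster. Ncam2 was also among its leading genes. The third, of 298 nuclei, had the highest Has2 and Dkk2. Has2 was at 916 CPM there and at most 271 CPM elsewhere, and Dkk2 was at 1888 CPM and at most 363 CPM elsewhere. Vcan, at 3780 CPM, Meis1, at 1710 CPM, and Meis2, at 2980 CPM, also peaked there. Dcc, the netrin receptor gene, led it at 1706 CPM against at most 327 CPM elsewhere. The fourth, of 294 nuclei, had Kcnip4, Lmx1a and Wnt16 among its leading genes. Eln peaked in the fifth, of 264 nuclei, at 1615 CPM, and by library at 1256, 3023, 1696 and 831 CPM.

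Among the smaller sub-clusters, the sixth, of 156 nuclei, was general fibroblast-like. Its top 10 genes held the fixed markers Clec3b, Mfap5 and Dpp4 and it was highest for 12 of the 14 markers of that list. Tnxb and Col3a1 peaked there, at 500 and 5529 CPM. The seventh, of 150 nuclei, was led by 1520401A03Rik, Adgrb3 and Rbfox1. It had the highest Fgf10, at 366 CPM, Mecom, at 4920 CPM, and Tbx1, at 120 CPM, of all sub-clusters. The eighth, of 131 nuclei, held proliferating nuclei, being highest for 19 of 21 proliferation genes such as Knl1 at 405 CPM, and its median depth of 5099 UMIs exceeded that of the other sub-clusters. The ninth, of 110 nuclei, was tendon-like, with Tnmd at 479 CPM and at most 19.0 CPM elsewhere, Thbs4 and Kera. It was highest for 6 of the 10 tendon and ligament markers, which summed to 3986 CPM there. The tenth was highest for 2 of them, and they summed to 2875 CPM in it. The tenth, of 91 nuclei, was chondrocyte-like. It was highest for 15 of 16 chondrocyte markers, and Col9a3, Cnmd and Matn3 of that list were among its leading genes. Colgalt2 led it, and Otos, a gene of inner ear fibrocytes, and the tendon gene Mkx were among its leading genes too. The 12th, of 49 nuclei, was led by Pax7 at 503 CPM and had Fgfr4 and Calcr among its leading genes, all known from muscle stem cells. It was highest for 6 of the 10 skeletal muscle markers, which summed to 1805 CPM there and to at most 742 CPM elsewhere. Only 1 of these markers was among its top 10 genes, and the sub-cluster was left without a name. The 13th, of 47 nuclei, had Tenm2, Col28a1 and Cdh19 among its leading genes and the highest Gpc3, at 1906 CPM.

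**Figure D3:**
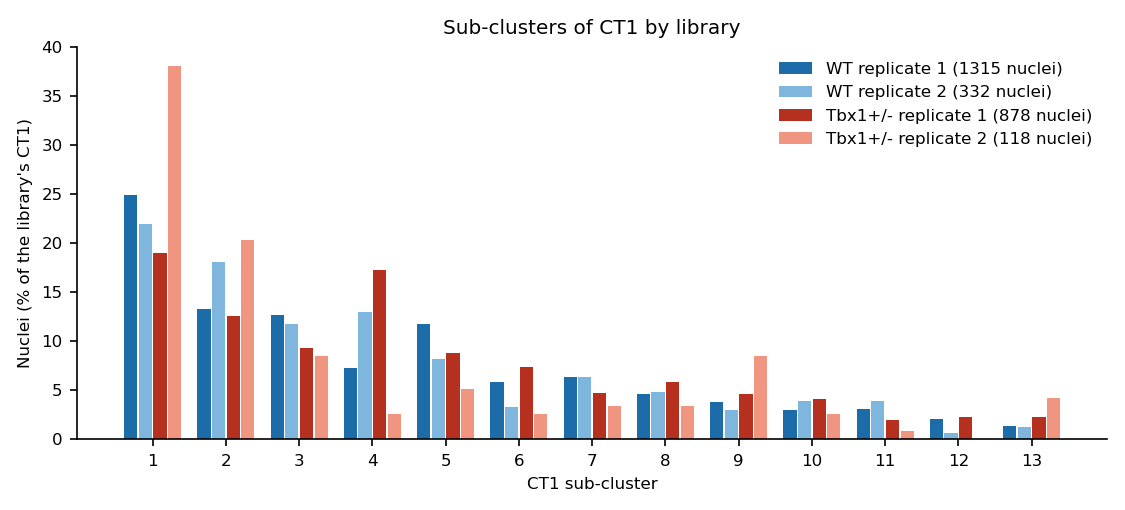
Share of each library's CT1 nuclei (%) in each of the 13 sub-clusters, with 1 bar per library. Sub-cluster 1 held 19.0% to 38.1% of CT1 nuclei and sub-cluster 4 held 2.54% to 17.3%; the Tbx1+/- replicate 2 bars rest on 118 nuclei.

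The share of a sub-cluster among CT1 nuclei varied between libraries. Sub-cluster 3 held 12.7%, 11.7%, 9.34% and 8.47%, and sub-cluster 9, the tendon-like one, held 3.80%, 3.01%, 4.56% and 8.47%. Sub-cluster 12, which carries the Pax7 counts, held 2.05%, 0.602%, 2.28% and 0%, where 0 of 118 nuclei allows a share of up to 2.54%. Sub-cluster sizes were not compared between genotypes, because genes that define sub-clusters 2, 3 and 7 differ in the genotype comparison below.

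The share of CT1 among annotated nuclei varied widely between replicates of both genotypes. It was 13.2% (95% Wilson interval 12.5% to 13.9%), 5.55% (5.00% to 6.16%), 10.1% (9.47% to 10.7%) and 1.84% (1.54% to 2.20%), intervals that cover counting error only. Replicate 1 exceeded replicate 2 by 2.37-fold in WT and 5.48-fold in Tbx1+/-, and the genotypes overlapped. CT2, CT3 and CT4 did not share this pattern, with shares of 2.73%, 4.46%, 3.45% and 4.04% for CT2, and CT1 made up 64.5%, 31.5%, 56.5% and 15.2% of all CT1 to CT4 nuclei. The log2 difference, Tbx1+/- minus WT, was -0.65 (SE 0.99) by edgeR's quasi-likelihood test on nuclei per class, with an adjusted p of 0.885 over 15 classes. An exact permutation test of the 4 shares, two-sided, gave p = 0.667, and the smallest value this design allows is 0.333. Within each pair of same-numbered libraries the Tbx1+/- share was the lower one, 0.765-fold WT in replicate 1 and 0.331-fold in replicate 2, and with replicate number as a block the log2 difference was -0.96 (SE 0.37, unadjusted p = 0.0649, adjusted p = 0.466, edgeR). In the fit without the block, it was 0.10 without Tbx1+/- replicate 2 and 0.11 without WT replicate 1.

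**Figure D4:**
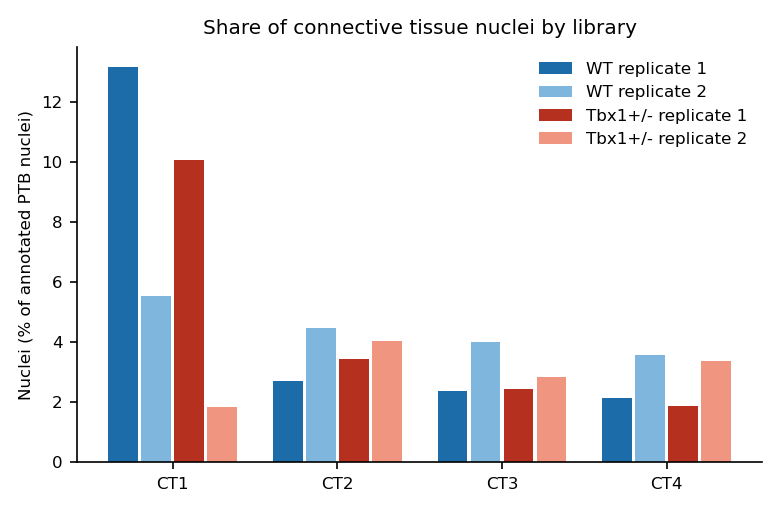
Share of annotated PTB nuclei (%) that were CT1, CT2, CT3 or CT4 in each library, with 1 bar per library. CT1 ranged from 1.84% to 13.2% and was higher in replicate 1 of both genotypes, while CT2 ranged from 2.73% to 4.46%.

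The targeted gene was near its average over the other classes. Tbx1 stood at 27.6, 34.4, 18.1 and 40.4 CPM, from 141, 54, 61 and 19 UMIs, and CT1 ranked seventh of the 15 classes, the highest being CP6 at 81.8 CPM. Its mean of 30.1 CPM compared with 32.6 CPM over the other 14 classes, and with 18.2, 7.74 and 8.55 CPM in CT2, CT3 and CT4. One Tbx1+/- library lay below and the other above both WT libraries. The log2 difference in CT1 was -0.37 (SE 0.35, unadjusted p = 0.317, edgeR), and it was -0.75 without Tbx1+/- replicate 2 and 0.37 without Tbx1+/- replicate 1. Within same-numbered libraries it was -0.61 in replicate 1 and 0.23 in replicate 2. A reduction in CT1 was not detected. In the annotated nuclei outside CT1, Tbx1 stood at 40.4, 39.7, 27.1 and 35.6 CPM, with both Tbx1+/- libraries below both WT libraries. Those nuclei mix 14 classes in shares that differ between libraries. By the tests described below, Tbx1 was called neither in those nuclei nor as differing between them and CT1. Within sub-cluster 7, where Tbx1 was highest, the level was 122, 157, 106 and 0 CPM, the last from 4 nuclei.

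Calls between genotypes in CT1 depended on whether replicate number was a block. Of 13488 genes tested by edgeR's quasi-likelihood test on CT1 sums without a block, 0 (0%) were called at a Benjamini-Hochberg adjusted p under 0.05 with a change of at least 1.5-fold, and 207 had an unadjusted p under 0.05. With the block, 14 genes (0.104%) were called, 5 higher and 9 lower in Tbx1+/-, in a fit with 1 residual degree of freedom. DESeq2 called 0 without the block, with 45 genes under an unadjusted p of 0.05. In the annotated nuclei outside CT1, 0 of 20111 genes (0%) were called. In none of the 32 gene lists was a member called in CT1 without the block, and the lists' median log2 differences ran from -0.30 for erythroid markers to 0.48 for Schwann cell and glial markers, beside 0.00 over all genes, and from -0.34 for erythroid markers to 0.65 for epithelial markers without Tbx1+/- replicate 2. Elastic fibre genes had a median of -0.17, with 1 of 21 at an unadjusted p under 0.05. Leaving out 1 library in turn gave 3 calls without WT replicate 1, 8 without WT replicate 2, 1 without Tbx1+/- replicate 1 and 3 without Tbx1+/- replicate 2, with the remaining library of that genotype assumed to vary like the other genotype.

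The genes closest to the threshold are given as values. They were picked only among genes that moved the same way in both same-numbered pairs of libraries. Their agreement between libraries is therefore partly set by the choice. Among them, the smallest p belonged to Ttr, which encodes transthyretin, a transport protein known from liver and choroid plexus. It stood at 5.69, 19.1, 138 and 34.0 CPM in CT1 and at 4.22, 24.4, 105 and 22.1 CPM in the other annotated nuclei. Tbx1+/- replicate 1 was highest in both. The log2 difference in CT1 was 3.28 (SE 0.58, unadjusted p = 0.000184, adjusted p = 1, edgeR), and that in CT1 minus that in the other nuclei was 0.41 (SE 0.25). With the block its adjusted p was 4.57e-12 (edgeR), and without Tbx1+/- replicate 2 the difference was 3.76. Chst9, a sulphotransferase gene with a mean level 11.7-fold that of CT2, stood at 97.0, 132, 49.9 and 48.8 CPM. Dcc stood at 323, 311, 137 and 193 CPM. For Chst9 and Dcc both Tbx1+/- libraries lay below both WT libraries, with log2 differences of -1.19 and -0.99 and adjusted p of 1 in CT1 by edgeR. Both passed with the block, at -1.11 (adjusted p = 0.000419) for Chst9 and -1.01 (adjusted p = 0.000453) for Dcc, and without Tbx1+/- replicate 2 the differences were -1.19 and -1.22. Among the genes that describe CT1, Vcan differed by -0.41 (SE 0.20) and Has2 by -0.57 (SE 0.17, unadjusted p = 0.00728) on the log2 scale, also at an adjusted p of 1. Without Tbx1+/- replicate 2 they were -0.34 and -0.58, and neither gene passed with the block.

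Whether the genotype difference in CT1 differs from that in the remaining annotated nuclei was tested as an interaction over 8 sums, 2 per library. Those remaining nuclei pool 14 classes whose shares differ between libraries. Osteoblasts, for example, were 14.6%, 20.0%, 21.4% and 20.2% of annotated nuclei. The part of this mix in the interactions was not tested. The fit had 2 residual degrees of freedom, so its p-values rest partly on spread shared across genes. Of 19482 genes, 27 (0.139%) were called by edgeR, 14 with a higher and 13 with a lower log2 difference in CT1. Dcc had the smallest p, with an interaction of -1.08 (SE 0.15, adjusted p = 2.02e-08). In the other nuclei it stood at 102, 122, 111 and 112 CPM, with the genotypes overlapping. In CT1 the UMIs came mainly from sub-cluster 3, where the level was 1885, 2215, 942 and 1302 CPM, against 94.2, 57.7, 70.2 and 99.1 CPM in the rest of CT1. Dcc helped to define this sub-cluster, so these levels are a description and do not place the difference. In Tbx1+/- replicate 2 the level rested on 10 nuclei, and 33 of the 91 Dcc UMIs of that library's CT1 were in 1 nucleus. Chst9 had an interaction of -1.11 (SE 0.24, adjusted p = 0.0037). Its level also peaked in sub-cluster 3, at 292 CPM, as did that of Cdh12, which encodes a cadherin, at 269 CPM with an interaction of -1.41 (SE 0.28, adjusted p = 0.000851).

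**Figure D5:**
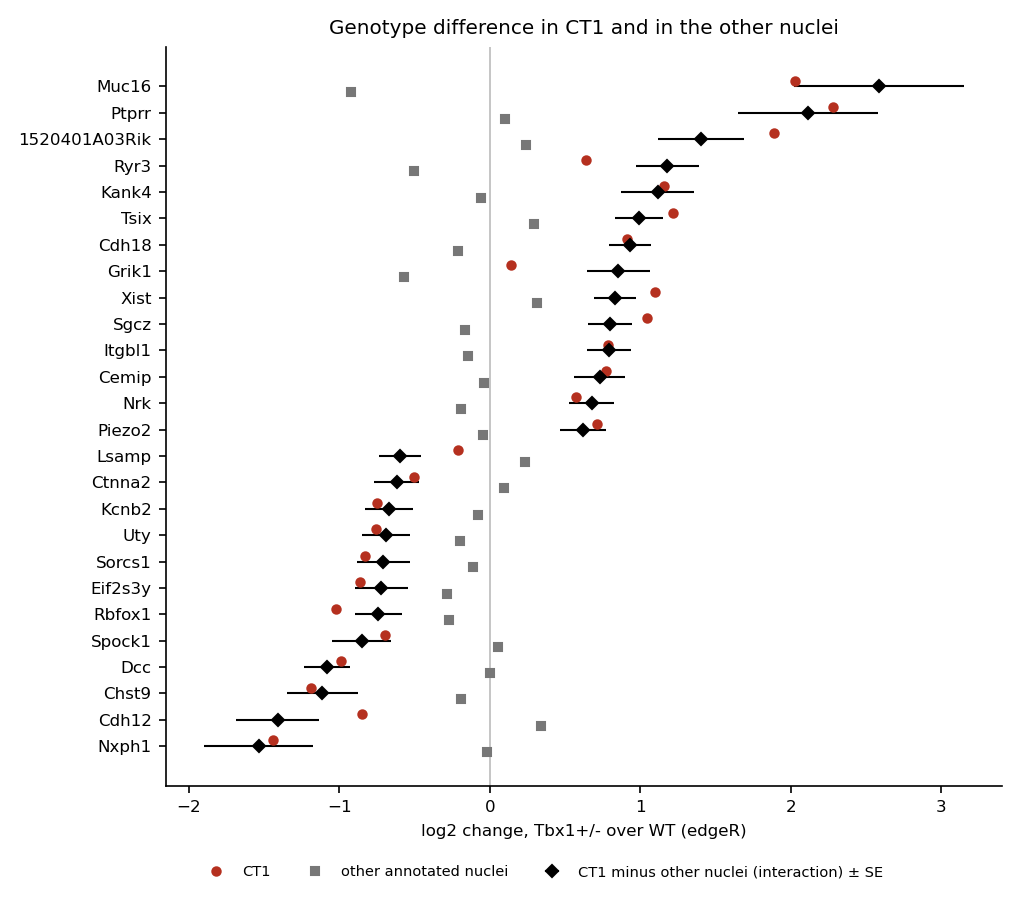
Log2 difference, Tbx1+/- over WT, by edgeR for 26 of the genes called in the interaction: red circles are CT1, grey squares the other annotated nuclei, and black diamonds the interaction (CT1 minus other nuclei) with its SE. The interactions run from -1.54 for Nxph1 to 2.59 for Muc16, and Dcc lies at -1.08.

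The number of called interactions moved with the libraries used. It was 22 without WT replicate 1, 12 without WT replicate 2, 72 without Tbx1+/- replicate 1 and 11 without Tbx1+/- replicate 2. Against CP1 to CP6 in place of all other nuclei, 5 of 17757 genes (0.0282%) were called, namely Chst9, Dcc, Ryr3, Tsix and Xist. Dcc was called in all 8 alternative fits, Tsix in 7 and Xist and Ryr3, a calcium channel gene, in 6, while the remaining genes whose values are given were called in 1 to 5. With 1 library left out in turn, the interaction ran from -1.24 to -0.81 for Dcc, called in 4 of 4 such fits, from -1.20 to -0.87 for Chst9, called in 1 of 4, and from -1.81 to -0.85 for Cdh12, called in 2 of 4. It ran from 0.41 to 1.30 for Tsix, called in 3 of 4, and from 0.37 to 1.23 for Xist, called in 2 of 4. Each of these fits leaves 1 genotype with a single library, assumed to vary like the other genotype, so the calls are a limited check. Ryr3 stood at 22.7, 31.8, 42.2 and 38.2 CPM in CT1 and at 63.9, 90.5, 48.0 and 60.7 CPM elsewhere.

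Several called genes owed much of their count to 1 nucleus. Muc16, the largest interaction, had 41 of its 75 UMIs in Tbx1+/- replicate 1 in 1 nucleus and 0 UMIs in Tbx1+/- replicate 2. For 1520401A03Rik, whose interaction was 1.40, 1 nucleus held 81 of 105 UMIs in Tbx1+/- replicate 2 and 1 held 69 of 187 in Tbx1+/- replicate 1. Ptprr had 53 of 92 UMIs of Tbx1+/- replicate 1 in 1 nucleus. In Tbx1+/- replicate 2, 1 nucleus held 318 of 702 UMIs of Cdh18 and 1 held 277 of 517 UMIs of Sgcz. The level of Sgcz, a sarcoglycan gene, was 352, 280, 247 and 1098 CPM, and its log2 difference in CT1 turned from 1.05 to -0.37 without that library. For Rbfox1, an RNA-binding splicing factor gene, 219 of 507 UMIs of WT replicate 2 lay in 1 nucleus. For Dcc in WT replicate 1, by comparison, 1650 UMIs came from 224 nuclei and no nucleus held more than 50. In Tbx1+/- replicate 2, however, 1 nucleus held 33 of 91 UMIs of Dcc and 1 held 9 of 23 UMIs of Chst9. Nxph1 had 1 UMI in that library.

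Genes of the sex chromosomes were among those called. Xist, the non-coding RNA of the inactive X chromosome, stood at 306, 506, 835 and 900 CPM in CT1 and at 548, 976, 653 and 1231 CPM in the other nuclei. CT1 therefore held less Xist than the other nuclei of the same library in 3 of 4 libraries and more in Tbx1+/- replicate 1. The interaction was 0.83 (SE 0.14, adjusted p = 1.76e-05, edgeR). Tsix, transcribed from the opposite strand of the same locus, stood at 58.0, 88.5, 172 and 157 CPM in CT1, with an interaction of 0.99 (SE 0.16, adjusted p = 4.36e-06). Strand use in counting is not given in the sources used here, so the pair may not be independent. The Y-linked genes Uty and Eif2s3y ran the other way. Uty stood at 187, 172, 107 and 106 CPM in CT1 and at 172, 138, 166 and 104 CPM elsewhere, and Eif2s3y at 107, 113, 52.9 and 76.5 CPM in CT1 and at 107, 85.7, 89.1 and 69.0 CPM elsewhere. With the block, all 4 of these genes were called in CT1 itself by edgeR, with adjusted p of 3.38e-05 for Xist, 1.79e-06 for Tsix, 0.0333 for Uty and 0.0245 for Eif2s3y. Each pool mixes mice, and the mix of males and females that contributed CT1 nuclei and genotype cannot be told apart with 2 pools per genotype. The part of that mix in the other called genes was not tested.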

How the data were processed

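Single-nucleus libraries were made with the Chromium 3′ v3.1 chemistry. The deposited counts are raw UMIs, which the authors obtained by aligning to mm10 and counting exons and introns in Cell Ranger 7.0.0, and they lack the SoupX correction for free RNA applied in the study. Cell types are the deposited annotation, which the authors made by Louvain clustering, label transfer and manual curation; the deposited UMAP coordinates are scores without a unit. Intronic counting raises long genes, so levels of different genes are not comparable. No column of another sample was present (0).

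UMIs of CT1 nuclei were summed per library and normalised by edgeR 4.0.16 (R 4.3.3, TMM factors, filterByExpr); genes were called at an adjusted p of 0.05 and a 1.5-fold change, and classes at 0.1. CT1 depth was 470850 to 5100579 UMIs per library, so values of low genes in Tbx1+/- replicate 2 are the least precise. The genes named are the study's PTB markers, the 30 genes chosen by ratio, the 10 in each direction closest to a call, the genes called in the interaction, and list members with the highest CT1 level. Those closest to a call were taken only among genes that moved the same way in both same-numbered pairs of libraries. Sub-clusters used scanpy 1.11.5 (2000 variable genes, 20 components, resolution 0.5), and doublets were not called, the sources used here describing no doublet step; the 8% of nuclei with the most UMIs were left out as an alternative. Alternatives also changed normalisation, filter, tool, replicate block, libraries and nuclei. Same-numbered libraries were taken as 1 batch from the methods and the dates in the deposited file names, and their deviations from the group means correlated at 0.161 over 2 pairs. Scripts were tested on simulated data. The members and gene lists were chosen with earlier results of these data known. DESeq2 1.42.0 was the alternative tool, and DCATS was not run. A few genes are not reported here.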

Additional observations from a re-analysis of the deposited data

Results flagged for a closer look

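The genotype difference in CT1 differed from that in the other annotated nuclei for 27 genes by the interaction test (edgeR, log2 scale, Tbx1+/- minus WT in CT1 minus the same in the other nuclei). It was higher in CT1 for Muc16 (2.59), Ptprr (2.11), 1520401A03Rik (1.40), Ryr3 (1.18), Kank4 (1.11), Tsix (0.99), Cdh18 (0.93), Grik1 (0.85), Xist (0.83), Sgcz (0.80), Itgbl1 (0.79), Cemip (0.73), Nrk (0.68) and Piezo2 (0.62). It was lower in CT1 for Lsamp (-0.60), Ctnna2 (-0.62), Kcnb2 (-0.67), Uty (-0.69), Sorcs1 (-0.71), Eif2s3y (-0.72), Rbfox1 (-0.74), Spock1 (-0.85), Dcc (-1.08), Chst9 (-1.11), Cdh12 (-1.41) and Nxph1 (-1.54), the values of 26 of these genes being given. Of these, Sgcz, Muc16, Ptprr and Lsamp had an interaction of the opposite sign in at least 1 fit that left out a library, reaching -0.42, -5.85, -0.24 and 0.0033.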

How the results depend on the processing

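The log2 difference in the CT1 share ran from -2.35 to 0.11 when 1 library was left out, reversed without WT replicate 1 (0.11) or Tbx1+/- replicate 2 (0.10), and kept its sign and its side of the threshold in the other 10 alternatives. The count of genes called in CT1 was 0, and 16 of 23033 without the filter on low counts, and 1 to 8 when 1 library was left out. With the replicate number as a block it was 14, and the block gave the CT1 share a log2 difference of -0.96 (edgeR, adjusted p = 0.466). The count of called interactions, 27, was 5 against CP1 to CP6 and 11 to 72 when 1 library was left out. Among named genes, leaving out 1 library moved the log2 difference from -0.75 to 0.37 for Tbx1 (reversed without Tbx1+/- replicate 1), from -0.11 to 0.89 for Mmp13 (reversed without WT replicate 2, -0.07, and without Tbx1+/- replicate 1), from -0.78 to 0.15 for Hs6st3, from -0.71 to 0.17 for Rspo2 and from -1.01 to 0.15 for Ctnna2 (these 3 reversed without WT replicate 2), and from -0.37 to 1.76 for Sgcz (reversed without Tbx1+/- replicate 2). With equal numbers of CT1 nuclei per library it reversed for Mmp13 (-0.047), Hs6st3 (0.26) and Ctnna2 (0.19). The cause was not tested. An alternative without sub-clusters 9, 10, 12 and 13, chosen after seeing the data, gave 0 calls and 21 interactions, of which 16 were among the 27. With 2 pools per genotype and 118 CT1 nuclei in 1 library, depth limits what low genes can show.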

Other observations

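The Schwann cell and glial markers summed to 305, 194, 456 and 280 CPM in CT1. Sox10, the defining factor of that lineage, was at 3.82 to 8.50 CPM. Cdon, a co-receptor gene for hedgehog ligands, was at 480 to 620 CPM in CT1, 3.15-fold CP2. Glis3, a zinc finger factor gene, was at 695 to 1039 CPM and 2.32-fold CT4, peaking in sub-cluster 2 at 1961 CPM. Cemip, which encodes a hyaluronan-degrading protein, was at 54.1 to 151 CPM in CT1, the second lowest of the 15 classes, against 1396 CPM in CP3.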
